A study of Mus musculus with 6 samples.

Results

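The troponin and tropomyosin genes of striated muscle were followed in mouse skeletal muscle after electrical pacing. All probes annotated with exactly 1 of the symbols Tnni1, Tnni2, Tnnt1, Tnnt3, Tnnc1, Tnnc2, Tpm1, Tpm2 and Tpm3 were taken, which gave 162 probes for 9 genes, of 6609 such probes for 3939 genes on the array. Tnni2, Tnnt3, Tnnc2 and Tpm1 were treated as the 4 fast forms and Tnni1, Tnnt1, Tnnc1 and Tpm3 as the 4 slow forms. Tpm2, which both kinds of fibre use, stood in neither list.

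Total RNA was hybridised on 6 spotted arrays with 2 channels each, and every array set 1 muscle sample against a common reference RNA called Pre, from control muscle. The sham array held muscle of sham-operated mice that carried a pacer which was never switched on. The other arrays held muscle of mice paced for 3 h through an implanted pacer, with muscle harvested as pacing ended (0 h) or 1 h, 3 h, 8 h or 24 h later. Values for the paced arrays are always listed in that order. The sham harvest matched the 0 h time, so at later times pacing and elapsed time cannot be told apart. The labels used here give neither the muscle, the strain, the age nor the number of mice behind an RNA. Each group was a single array, so no difference could be checked in replicates and no p-value was computed. The spread quoted beside a gene is that of its probes on the same RNA, which leaves out the spread between animals and between arrays.

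Tropomyosin lies along the actin filament and blocks myosin binding at rest. The troponin complex sits on it: troponin C binds calcium, troponin I inhibits the filament until calcium arrives, and troponin T ties the complex to tropomyosin. Fast and slow fibres use different genes for each subunit, which gives them a different calcium sensitivity, and sustained electrical activity is known to move fast muscle towards slow forms over days to weeks.

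Values were log2 ratios of sample to Pre, centred on each array's median. The dyes were not given, so sample over Pre is the likely direction, and every sign below rests on it. The sham array stood apart in form, with 485 empty cells where the paced arrays had none, and it had the widest ratios, with a robust SD of 0.495 against 0.176 to 0.445 on the paced arrays. For the 9 genes each difference from sham is therefore given with the ratios to Pre behind it. The 15 pairs of arrays correlated across probes with r from 0.19 to 0.71. Signal levels were not analysed here, so the tissue could not be checked against its defining markers, and a lower ratio in bulk muscle cannot separate less RNA per fibre from fewer fibres of a kind.

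At no time did any of the 9 genes reach a 2-fold difference from sham. A gene counted as 2-fold different where its log2 difference was at least 1 in size. The count was 0 of 9 members over the paced arrays, where 6.5%, 1.54%, 2.43%, 3.66% and 5.98% of all genes measured were past it. Against Pre the count was also 0 of 9 on every array, with 4.07% of all genes past it in sham and 2.11%, 0.77%, 5.37%, 2.22% and 5.3% over the paced arrays. The largest member difference from sham was that of Tnni1 at 8 h, 0.63 higher, and the largest decrease was that of Tpm1 at 24 h, -0.51. What follows are differences of less than 2-fold, described by how many probes went the same way.

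**Figure D1:**
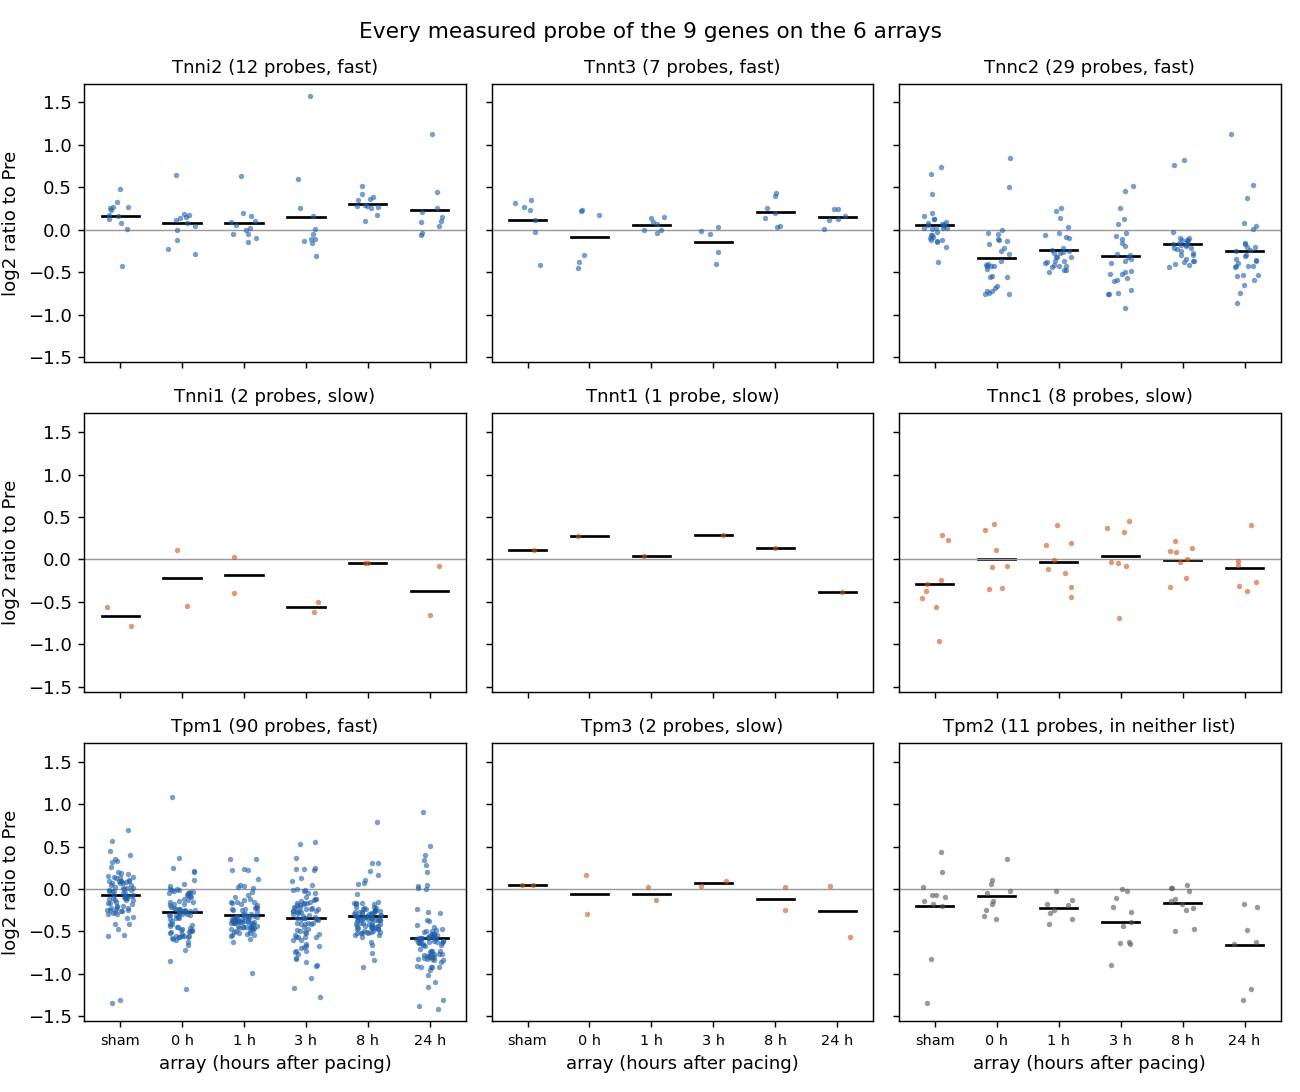
Log2 ratio to Pre (vertical axis) of every measured probe of the 9 genes on the 6 arrays (horizontal axis); each dot is 1 probe and each black bar the mean of a gene's probes on 1 array. Tpm1, with 90 probes, has a mean of -0.07 on the sham array and -0.58 at 24 h, while Tnni2 has means from 0.08 to 0.31 on all arrays.

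Tnnc2 codes for fast troponin C, the calcium sensor of fast fibres, and had 29 probes. Its mean log2 ratio to Pre was 0.05 in sham and -0.33, -0.24, -0.31, -0.16 and -0.25 over the 5 paced arrays. The sham array thus stood level with Pre and all 5 paced arrays stood below it. The probe SD was 0.23 in sham and between 0.21 and 0.40 after pacing, so single probes of the sham and paced arrays overlapped. Against sham the difference was -0.38 at 0 h (probe SD 0.40, 29 probes on both arrays), a 1.30-fold decrease, with 25 of 29 probes lower. At the later times it was -0.29, -0.37, -0.21 and -0.30, with 26 of 28, 24 of 28, 26 of 29 and 27 of 29 probes lower. The 1 h value was -0.51 when all arrays were given the same robust SD. Of all probes with 1 symbol, 50.1% were lower than sham at 0 h and 47.3% at 24 h, against 86.2% and 93.1% of the Tnnc2 probes. Set among the 33 genes with at least 10 probes, Tnnc2 had 6, 6, 2, 11 and 13 genes lower over the 5 times. Higher were 26, 26, 30, 21 and 19, so at 24 h it lay nearer the middle of those genes. The 5 differences of a probe share its 1 sham value, so their agreement in sign is not independent. How often it occurs among all probes was not counted. Of 27 Tnnc2 probes measured on all 6 arrays, 21 were below sham on all 5 paced arrays and 2 were above it on all 5. The higher of those 2 stood at 1.13 against Pre at 24 h, where the mean of the other probes was -0.30 (SD 0.31). The 2 probes were picked out after their values had been seen.

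Slow troponin C, Tnnc1, which the heart also uses, showed the opposite order on 8 probes. Its mean ratio was -0.29 in sham and 0.0031, -0.03, 0.04, -0.0042 and -0.10 over the 5 paced arrays. The 5 paced arrays stood close to Pre, and the sham array stood below it, so the positive differences from sham came from the sham value. They were 0.30, 0.26, 0.34, 0.29 and 0.19 over the 5 times; the 24 h value was 0.04 on the 6 probes with a value on each of those arrays (probe SD 0.49). Probes were higher than sham in 7 of 8 at 1 h and 6 of 7 at 3 h, but in 4 of 7 at 0 h and 3 of 6 at 24 h. The sham probes ranged from -0.96 to 0.29 and overlapped those of every paced array.

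The fast minus slow difference of troponin C was 0.35 in sham and -0.33, -0.21, -0.36, -0.16 and -0.15 over the 5 paced arrays, all against Pre. These compare ratios to Pre, not levels. Troponin C was the subunit in which the fast ratio stood above the slow one in sham and below it on all 5 paced arrays. Taken within an array, this difference does not depend on the centring. It does carry the low sham value of Tnnc1, which makes up most of the 0.35.

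Since Tnnc2 and Tpm1 stood lower on all paced arrays and Tnnc1 did not, the bases before the start of these 3 genes are shown, from the RefSeq promoter table, build GRCm38.p6, which held 7 of the 9 genes. Each run is 250 bases, 5' to 3' on the gene's strand, and ends just before the start site: chr2:164779735-164779984 (minus strand) for Tnnc2, chr14:31208062-31208311 (plus strand) for Tnnc1 and chr9:67049214-67049463 (minus strand) for Tpm1. Capitals mark letters that match the E-box (CANNTG) or the MCAT element (CATTCC), both bound by muscle transcription factors, on either strand; no matches overlapped one another.
Tnnc2: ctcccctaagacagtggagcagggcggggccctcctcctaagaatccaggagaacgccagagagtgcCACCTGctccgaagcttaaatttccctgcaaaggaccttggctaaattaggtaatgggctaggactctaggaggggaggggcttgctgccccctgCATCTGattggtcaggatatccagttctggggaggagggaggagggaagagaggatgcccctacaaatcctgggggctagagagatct
Tnnc1: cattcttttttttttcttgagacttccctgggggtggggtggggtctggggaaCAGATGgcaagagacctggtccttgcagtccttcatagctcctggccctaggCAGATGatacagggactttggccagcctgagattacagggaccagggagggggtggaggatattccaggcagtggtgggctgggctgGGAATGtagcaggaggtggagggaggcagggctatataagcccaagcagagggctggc
Tpm1: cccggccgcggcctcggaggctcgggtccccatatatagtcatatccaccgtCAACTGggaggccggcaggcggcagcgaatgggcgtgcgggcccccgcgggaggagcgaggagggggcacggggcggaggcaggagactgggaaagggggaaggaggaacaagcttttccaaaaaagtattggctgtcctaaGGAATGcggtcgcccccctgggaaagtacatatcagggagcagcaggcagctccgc
The E-box letters occurred 2 times before Tnnc2 and before Tnnc1 and 1 time before Tpm1, and 66.2% of the 32851 windows of this length in the table held at least 1. An MCAT match, read on the opposite strand, lay 58 to 53 bases before the start of Tnnc1 and 56 to 51 bases before that of Tpm1, and 12.6% of all windows held one. Windows of all 7 genes held 0 matches to the MEF2 and CArG consensus sequences, which 2.92% and 1.47% of all windows held. Such matches describe letters in a window and say nothing of binding.

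Tpm1, the alpha tropomyosin gene that fast fibres use, was the most densely printed member, with 90 probes. Its mean ratio to Pre was -0.07 in sham (probe SD 0.30) and -0.28, -0.30, -0.34, -0.32 and -0.58 over the 5 paced arrays (probe SD 0.30, 0.22, 0.34, 0.24 and 0.39). The first 4 paced arrays differed by less than the probe SD, and the 24 h array lay lowest. Below Pre were 49 of 82 probes in sham, and 77 of 86, 78 of 88, 80 of 90, 82 of 90 and 77 of 87 after pacing.

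Against sham, Tpm1 differed by -0.20, -0.23, -0.27, -0.25 and -0.51 over the 5 times, the last a 1.42-fold decrease (79 probes on both arrays, probe SD 0.47). With all arrays at the same robust SD, the 1 h and 8 h values were -0.54 and -0.41. Lower than sham were 62 of 79 probes at 0 h and 72 of 79 at 24 h. The probe differences at 24 h ran from -1.48 to 1.63 with a median of -0.57. Among the 33 genes with at least 10 probes, 5 stood lower than Tpm1 at 24 h and 27 higher. At 0 h it lay in the middle of those genes, with 17 lower and 15 higher. The share of all probes below Pre on every paced array was not counted either. Of 81 Tpm1 probes measured on all paced arrays, 67 were below Pre on each and 1 was above Pre on all 5 paced arrays, reaching 1.09 at 0 h and 0.90 at 24 h. Leaving it out moved the 24 h mean to -0.60.

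Tpm2, the beta tropomyosin gene, had 11 probes. Its mean ratio was -0.20 in sham and -0.08, -0.23, -0.38, -0.17 and -0.66 over the 5 paced arrays. The 24 h array was the lowest, as for Tpm1, and all 7 probes measured there lay below Pre. Its difference from sham at 24 h was -0.46 from the gene means and -0.68 on the 7 probes with a value in sham and at 24 h (probe SD 0.43), all 7 lower. With exact zeros and shared values kept, it was -0.22. The probes with no value at 24 h included the 2 lowest in sham, at -1.35 and -0.82. At 0 h to 8 h the differences lay between -0.18 and 0.13, and probes went both ways.

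The gene of slow alpha tropomyosin, Tpm3, had 2 probes and a mean ratio of 0.05 in sham and -0.06, -0.06, 0.07, -0.11 and -0.26 over the 5 paced arrays. Its probes disagreed at 24 h, at -0.57 and 0.04, so the lower mean there rests on 1 of them. All 3 tropomyosin genes had their lowest ratio at 24 h. Tpm1 stood below Tpm3 on all 6 arrays, with differences of -0.12 in sham and from -0.40 to -0.21 after pacing, which is within the probe SD of Tpm1 except at 1 h and 3 h. Tropomyosin genes share long stretches of sequence, and cDNA spots can bind close relatives, so the split among Tpm1, Tpm2 and Tpm3 is uncertain.

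Tpm1 and Tpm2 also serve smooth muscle. The smooth muscle markers with a probe were 4 of 5 (Myh11 had none), with 1 probe each. Against Pre, the gene Actg2 stood at 2.52 in sham and from -0.89 to -0.02 on the paced arrays, and Acta2 at 0.54 in sham and from -0.50 to -0.10. The median of the 3 markers with a sham value was -1.04 to -0.63 against sham. Cnn1 was -0.59 in sham and from -0.84 to -0.11 after pacing. In sham, Tpm1 and Tpm2 were at or below Pre and Cnn1 was below it, while Actg2 and Acta2 were above it. The part of smooth muscle in the values of Tpm1 and Tpm2 was not tested.

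**Figure D2:**
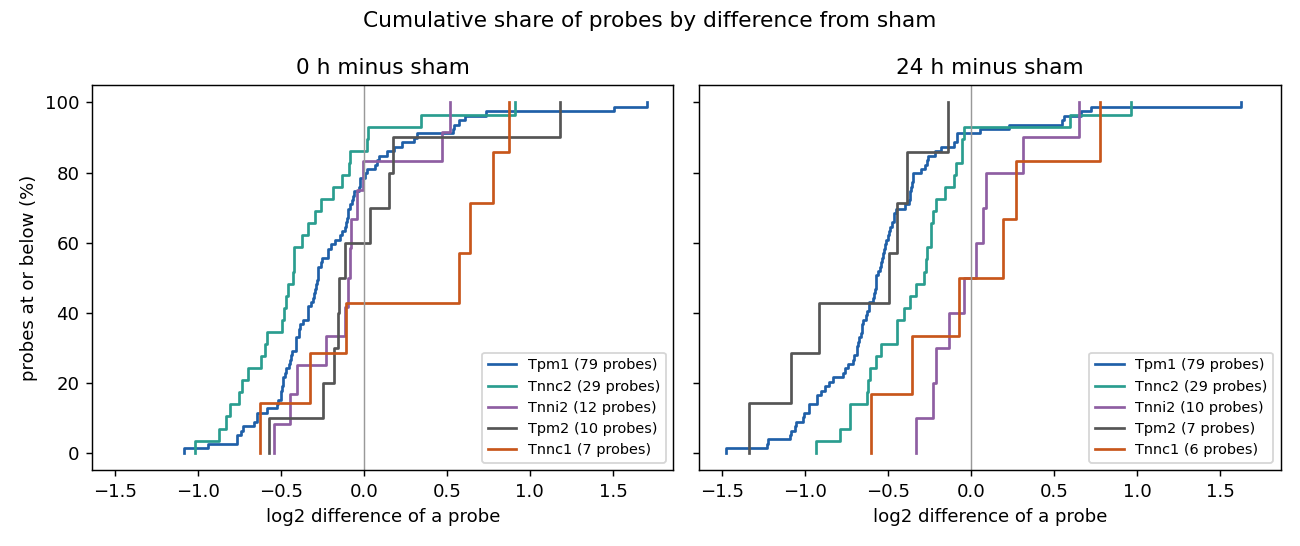
Share of a gene's probes (vertical axis, percent) at or below each log2 difference from sham (horizontal axis), at 0 h (left) and 24 h (right), for Tpm1, Tnnc2, Tnni2, Tpm2 and Tnnc1; Tnnt3, with 6 probes on both arrays, is not drawn. At 24 h the Tpm1 curve has passed 91.1% and the Tnnc2 curve 93.1% before it reaches a difference of 0, against 50.0% for Tnni2 and Tnnc1.

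Tnni2, fast troponin I, the inhibitory subunit, stood above Pre where Tnnc2 stood below it. On 12 probes its mean ratio was 0.16 in sham and 0.08, 0.08, 0.16, 0.31 and 0.23 over the 5 paced arrays. All 6 means were above Pre. The differences from sham lay between -0.09 and 0.15, inside the probe SD of 0.24 to 0.47 of those differences. Lower than sham were 10 of 12 probes at 0 h and again at 1 h, 8 of 11 at 3 h, and 5 of 10 at 24 h. At 8 h all 12 probes lay above Pre, from 0.10 to 0.52, and 9 of 12 above sham. At 3 h the SD of 0.53 came from 1 probe at 1.57, which also stood at 1.13 at 24 h. A second spot annotated with the same clone stood at -0.11 and 0.25 on those arrays. Without that probe the mean of Tnni2 was 0.02 at 3 h (SD 0.26) and 0.13 at 24 h (SD 0.15).

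Slow troponin I, Tnni1, is also the form that developing muscle makes, and had 2 probes. Its mean ratio was -0.67 in sham and -0.22, -0.19, -0.56, -0.04 and -0.37 over the 5 paced arrays. Sham was lowest, and no paced array had a mean above Pre. The differences from sham were 0.45, 0.48, 0.11, 0.63 and 0.30 over the 5 times, and both probes lay above sham at each time. At 8 h, 349 of 3794 genes lay higher against sham than Tnni1, a 1.55-fold increase. The 2 probes were at -0.78 and -0.56 in sham and both at -0.04 at 8 h, but at -0.55 and 0.11 at 0 h. When all arrays were given the same robust SD, the differences became 0.21, 0.10, 0.033, 0.41 and 0.15 over the 5 times. The ratio of fast troponin I stood above that of slow troponin I on all 6 arrays, by 0.83 in sham and 0.29, 0.27, 0.72, 0.35 and 0.60 after pacing.

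Fast troponin T, Tnnt3, links the complex to tropomyosin and had 7 probes, with mean ratios of 0.12 in sham and -0.08, 0.06, -0.14, 0.21 and 0.15 over the 5 paced arrays. At 3 h all 5 probes on both arrays lay below sham, and the mean of those probes' differences was -0.33 (probe SD 0.15; -0.26 from the gene means). At 8 h all 7 probes and at 24 h all 6 lay above Pre. The difference from sham was 0.10 at 8 h (probe SD 0.29), and at 24 h it was 0.03 from the gene means but -0.06 on the 6 probes with a value on each array (probe SD 0.13). Tnnt3 and Tnni2 lie near each other on chromosome 7, with 1 other protein-coding gene starting between them in the gene table. Both had their highest mean at 8 h.

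The slow troponin T gene Tnnt1 had 1 probe, at 0.11 in sham and 0.28, 0.04, 0.29, 0.14 and -0.38 over the 5 paced arrays. Only the 24 h array lay below Pre, 0.49 below sham. A single spot is a weak basis, as pairs of spots annotated with the same clone show. Over 46 to 75 such pairs an array, the SD of 1 spot was 0.32 at 1 h to 0.68 at 24 h, and 0.54 in sham, so a single-spot difference between 24 h and sham has an SD of 0.87. The Tnnt1 value at 24 h lies inside that SD. The fast minus slow difference of troponin T against Pre went both ways, 0.0052 in sham and -0.36, 0.02, -0.43, 0.08 and 0.53 after pacing.

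**Figure D3:**
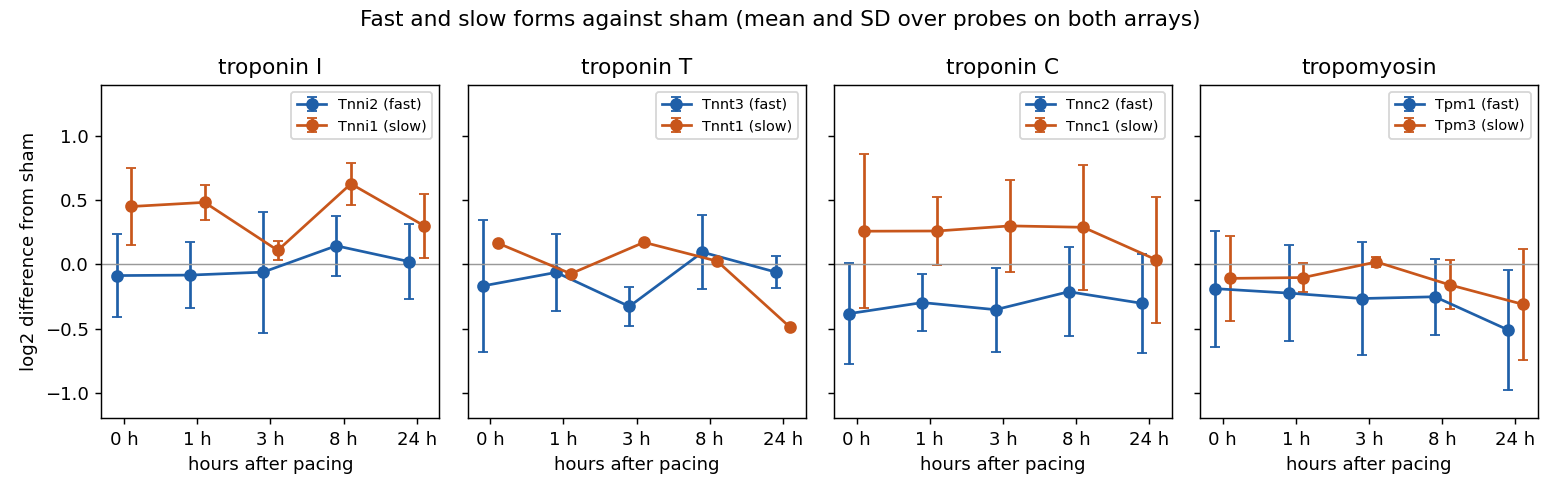
Log2 difference from sham (vertical axis) of the fast (blue) and slow (orange) gene of each subunit at 0 h to 24 h after pacing (horizontal axis); points are means and bars SD over probes measured on both arrays, and Tnnt1 has 1 probe and no bar. The mean of Tnnc1 lies above that of Tnnc2 at each time, and their bars are clear of each other at 1 h alone; the bars of Tpm1 and Tpm3 overlap throughout.

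Set side by side as lists, the 4 fast forms had a median difference from sham of -0.20, -0.16, -0.26, -0.06 and -0.14 over the 5 times. All 4 were lower than sham at 0 h, 1 h and 3 h, and 2 of 4 at 8 h and 24 h. Tnni2 at 3 h was only -0.0065 from sham by its gene means. Of its 11 probes on both arrays, 8 were lower, and the median probe difference was -0.27. With all arrays at the same robust SD, Tnni2 and Tnnt3 stood above sham at 1 h (0.04 and 0.03) and Tnni2 at 3 h (0.0077). Of all genes measured, 1645 of 3586, 1722 of 3698, 1701 of 3628, 1655 of 3794 and 1519 of 3597 were lower than sham over the 5 times. The 4 slow forms had medians of 0.23, 0.09, 0.14, 0.16 and -0.06 at the same times, with 3, 2, 4, 3 and 2 of 4 above sham. Without Tnnt1, which had 1 probe, the slow medians were 0.30, 0.26, 0.11, 0.29 and 0.19, so the sign at 24 h rests on that probe. All genes measured had medians of 0.05, 0.03, 0.02, 0.06 and 0.08. The fast forms had 7 to 90 probes and the slow forms 1 to 8. At 0 h, Tpm1 at -0.20 had 17 of the 33 genes with at least 10 probes below it and 15 above it. A difference between the forms was not separated from one that goes with probe number.

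From the list medians against sham, fast minus slow was -0.43, -0.25, -0.40, -0.22 and -0.08. Without the tropomyosins and under the other settings tried, the value stayed below 0 at each time, from -0.50 to -0.39 at 0 h and from -0.16 to -0.03 at 24 h. Leaving out Tnnt1 was not among these settings. Without it the slow median at 24 h was 0.19, where the fast median was -0.14, a wider gap than in that range. Against Pre the picture differed, because sham itself stood at 0.21. The fast minus slow difference there was -0.15, -0.05, -0.28, 0.05 and 0.26. The fast median thus lay below the slow median at 0 h, 1 h and 3 h against either reference, and at 8 h and 24 h the direction depended on the reference. Not every subunit followed the medians: against Pre the fast form stood above the slow form in the troponin I pair at all times, and in the troponin T pair at 1 h, 8 h and 24 h. At 24 h all 4 slow forms lay below Pre, with a median of -0.32, and 2 of the 4 fast forms did.

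**Figure D4:**
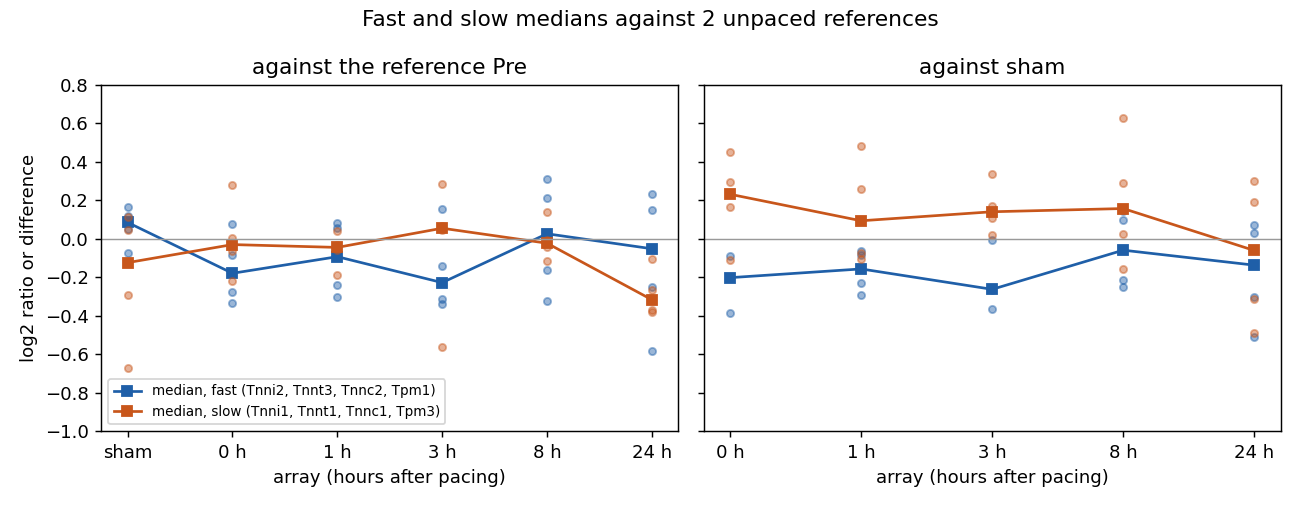
Median (squares) and single genes (dots) of the 4 fast and 4 slow forms, as log2 ratio to Pre on 6 arrays (left) and as log2 difference from sham on the 5 paced arrays (right). Against sham the slow median lies above the fast median at each time, while against Pre the fast median is the higher one in sham and at 8 h and 24 h.

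The heart forms of 2 subunits were also printed, though cDNA spots of this family may bind the muscle forms. Tnni3, cardiac troponin I (2 probes), stood at -0.55 in sham and from -0.21 to -0.05 after pacing, and Tnnt2, cardiac troponin T (7 probes), at -0.39 and from -0.26 to -0.04. Like Tnni1 and Tnnc1, both had their lowest ratio on the sham array. Myh6 and Nppa, other heart genes, stood at -0.13 and -0.11 in sham and lower at 24 h, at -0.39 and -0.19.

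Other genes of the thin filament and its ends had medians below sham at all 5 times, with genes on both sides. Of 20 listed, 13 had a probe, and the medians were -0.12, -0.09, -0.18, -0.23 and -0.20. Lower than sham were 8 of 12, 7 of 11, 7 of 12, 10 of 12 and 9 of 12 genes. Of all genes, 1645 of 3586, 1722 of 3698, 1701 of 3628, 1655 of 3794 and 1519 of 3597 were lower. Acta1, skeletal actin, stood at -0.41 against sham at 3 h (6 probes on both arrays, probe SD 0.40; -0.47 against Pre) and -0.06 at 24 h, when Tpm1 was lowest. Actc1, cardiac actin, stood at -0.63 at 24 h (2 probes on both arrays, probe SD 0.45; -0.65 against Pre). Tcap, the titin cap of the Z-disc, was the 1 gene of the list 2-fold lower at 24 h, at -1.61 (4 probes, probe SD 0.27), with 0.39 in sham and -1.21 at 24 h against Pre; of all genes, 2.89% were 2-fold lower then. Lmod2, which nucleates and lengthens thin filaments, was 2-fold higher at 3 h, at 1.12 from the gene means, and stood at 0.04 at 24 h. Its 3 h mean, 1.14 against Pre, rests on 1 probe and its sham mean on 2, so the probes were not matched. Of all genes, 1.43% were 2-fold higher at 3 h. Ttn, the giant spring protein titin, with 46 probes, differed by 0.06 to 0.38, inside its probe SD of 0.36 to 0.61.

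Fast fibre genes outside the thin filament also divided. Of 14 listed, 12 were measured against sham, and their median was -0.09, -0.13, -0.10, -0.24 and -0.41 over the 5 times, with 9 of 12 lower at 24 h. Casq1, the calcium store protein (-1.04, probe SD 0.82), Eno3, muscle enolase (-1.04, probe SD 0.19), and Pfkm, phosphofructokinase (just at the 2-fold threshold, -1.0004, probe SD 0.46), were 2-fold lower at 24 h, 3 of 12 genes against 2.89% of all genes. Against Pre they stood at -1.43, -1.18 and -1.01, with sham at -0.39, -0.15 and -0.01. Myh4, the fastest myosin heavy chain, stood above sham by 0.78 at 0 h and 0.47 at 24 h. Both lay inside the probe SD of 0.81 and 0.55 (33 and 34 probes on both arrays). Against Pre, Myh4 was at 0.21 and -0.10, with sham at -0.57. Atp2a1 was higher against both references at those times. It stood above sham by 0.68 and 0.69 (4 probes on both arrays, probe SD 0.50 and 0.36). Against Pre it was at 0.20 and 0.21, with sham at -0.49. The slow fibre genes had medians of -0.07, 0.13, 0.02, 0.16 and -0.21 at the 5 times, with 7 of 12 lower than sham at 24 h and 5 higher. Those with most probes, Ckmt2, Mb and Myh7, were lower, at -0.54, -0.55 and -0.47 (probe SD 0.44, 0.54 and 0.55). Against Pre they stood at -0.43, -0.32 and -0.23. Myl3, slow myosin light chain, was at -0.60 (3 probes on both arrays, probe SD 0.52) and -0.57 against Pre. Among the higher genes, Myl2, the slow regulatory light chain, was 0.32 above sham at 24 h (3 probes on both arrays, probe SD 0.57) and 0.27 against Pre.

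By Pearson correlation of the 6 ratios to Pre, among 1128 other genes with at least 2 probes and a value on all arrays, the mean profile of the fast forms was most like Tmsb4x, which binds actin monomers (r = 0.994), then Cox6a2, a respiratory chain subunit of striated muscle (0.935), Endod1 (0.919), Flot1 (0.918) and Rc3h1 (0.902). The slow mean profile was most like Gatad2b (0.971), Wasf2, an activator of actin branching (0.963), Chpt1 (0.955), Ptp4a2 (0.946) and Ccny (0.921). All 6 values share the Pre RNA, and so many genes set against 6 points give high values readily, so these are descriptions without a test.

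Markers of other cell types were followed on the same arrays. Against sham, the 4 measured fibroblast and matrix markers of 6 had medians from -0.67 to -0.04. Those of the 5 measured endothelial markers of 6 ran from -0.10 to 0.26. The 2 measured leukocyte markers of 5 went opposite ways. Ptprc stood at -0.91 to -0.33, with no value at 3 h, and Lyz2 at 0.05 to 0.29. The haemoglobin gene Hba-a1, the 1 measured blood marker of 4, stood at -0.44 to -0.12, and none of the 6 satellite cell markers had a probe. Against Pre the fibroblast and matrix median was 0.14 in sham and -0.04, -0.10, -0.61, -0.33 and -0.40 after pacing, lowest at 3 h, where against sham it was lowest at 24 h. Their part in the values of Tpm1 and Tpm2, lowest at 24 h, was not tested.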

How the data were processed

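Values came from the deposited table, a set of log10 ratios for 13872 probes on each array; the log base was read from rounding residues in the values. Background correction, normalisation and scanner are not given in the sources used here. The deposited log10 medians were 0 on 5 arrays and -0.00032 at 8 h, so centring had been done or nearly so; direction is likely sample over Pre, and by what method arrays were centred is unknown. Exact zeros (201 in sham, 665 to 1762 on paced arrays) and values shared within a run of 289 probes (154 in sham, at most 8 on a paced array) were set to missing. After conversion to log2, the median of each array was subtracted. Probes with exactly 1 symbol in the platform annotation were averaged per gene; 284 probes had several symbols and 6979 none. Entrez ID and symbol of all 9 members were found in the RefSeq gene table (GRCm38.p6). Of the 162 member probes, 150 to 162 had a value on an array, and no filter on low values was used. Members and lists were chosen with earlier results of these data known.

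Differences from sham were subtracted gene means, with no test, since precision is limited by 1 array per group. Genes eligible to be named were all members, genes of the stated lists with several probes or a 2-fold difference, and the 5 genes most like each mean profile; among the eligible list genes, those named were picked with their values seen; marker genes came from the marker lists. Alternatives kept zeros and shared values, used probes on both arrays, took probe medians, scaled arrays to a common robust SD, left out centring, centred per run, kept members on all arrays, used troponins alone or (added after seeing the data) averaged probes of a clone first. The steps were tested on simulated data with known shifts. Python 3.11.15, pandas 2.3.3, numpy 2.4.6 and matplotlib 3.10.9 were used.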

Additional observations from a re-analysis of the deposited data

How the results depend on the processing

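No paired analysis was possible because each group had 1 array and the labels give no replicate numbers; leaving out a replicate was impossible for the same reason. A value was taken as moved when an alternative shifted it by more than the probe SD of a gene's difference, the SD over members of a list, or, for Tnnt1 with 1 probe, the SD of a single-spot difference. Under arrays scaled to a common spread the differences of Tnni1 from sham became 0.10, 0.033 and 0.41 for 1 h, 3 h and 8 h. No other value moved by that measure, but several changed by over 1.5 times within it. With the same scaling these included Tnni1 at 0 h and 24 h (0.21 and 0.15), Tnnc2 at 1 h (-0.51), Tpm1 at 1 h and 8 h (-0.54 and -0.41), Tnni2 at 8 h (0.33), Tnnt3 at 8 h (0.22), Tnnc1 at 1 h and 24 h (0.14 and 0.12) and Tnnt1 at 0 h (0.25). Scaling also took the fast list median against sham at 1 h to -0.24. The slow list medians at 1 h and 3 h became 0.05 and 0.09. Probe medians took the fast list median at 8 h to -0.13. Tpm2 was -0.22 at 24 h with zeros and shared values kept, -0.30 at 3 h as a probe median and at most 0.05 at 0 h under 3 settings. The fast minus slow difference from sham stayed below 0 in 35 of 35 alternatives that could change it. That count leaves out centring, as it cancels, and a filter that removed no member. The difference ran from -0.34 to -0.25 at 1 h, -0.44 to -0.29 at 3 h and -0.33 to -0.18 at 8 h. All 35 subtract the same sham array, so they cannot show whether the sign depends on that array. Against Pre the difference was -0.15, -0.05, -0.28, 0.05 and 0.26 over the paced arrays. Of 315 alternatives for single members, 303 kept the sign, and the 12 others concerned differences of at most 0.10 from sham in Tnni2, Tnnt3, Tnnt1 and Tpm2; scaling at 1 h accounted for 3 of these. No alternative put a member 2-fold from sham. Signal over background is unknown, as no signals accompany the ratios.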

Other observations

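The 3 clones of these genes that were annotated on 2 spots gave a direct view of spot error, read after the values had been seen. The 2 Tpm1 spots of 1 clone stood at 0.23 and 0.22 at 1 h, and at 0.51 and -0.77 at 24 h. For Tnni2 the pair stood at 0.38 and 0.52 at 8 h, and at -0.11 and 1.57 at 3 h. The Tnnt3 pair stood at 0.22 and 0.23 at 0 h, and at 0.23 and -0.42 in sham. The arrays given were picked as a close and a wide case for each pair; the Tpm1 pair was also close in sham (0.45 and 0.33), at 0 h (-0.02 and -0.04) and at 8 h (0.16 and 0.21). Over all such clones the SD of 1 spot, 0.68 at 24 h, exceeded the SD over the 87 measured Tpm1 spots, 0.39, although the latter hold different clones.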
